A study of Mus musculus with 19 samples.

Results

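Heat shock chaperones were followed in mouse hepatic stellate cells (HSCs), the vitamin A storing pericytes of the liver, during their first 96 h in culture. The 10 genes described are Hspa1a, Hspa1b, Hspa8, Hsph1, Dnajb1, Hspb1, Hsp90aa1, Hspd1, Hspe1 and Bag3, chosen by name as cytosolic and mitochondrial members of the heat shock response. All 10 were found among the 55487 gene rows of the count table by their Ensembl identifiers, and all 10 passed the filter on low counts that left 15138 genes for testing. HSCs came from male Balb/c mice aged 23 to 24 weeks and were enriched by sorting for the ultraviolet fluorescence of their vitamin A. Freshly isolated HSCs (0 h, n = 2) had not been cultured. Cultured HSCs were collected after 3, 6, 12, 18 and 96 h (n = 3 each) and after 24 h (n = 2), after growth on collagen-coated plastic in DMEM with 10% foetal bovine serum, with fresh medium given at 3 h and 24 h. Every cultured sample therefore shared the plastic, the serum and the attachment step, and the uncultured 0 h cells were the only control. The 0 h cells had themselves passed through liver perfusion, isolation and sorting, and the effect of these steps on the chaperones was not tested.

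The labels number the samples of each timepoint 1, 2 or 3 and tie each number to an isolation date. Replicates 1 and 3 carried one isolation date and replicate 2 a later one, and the 0 h samples were replicates 2 and 3. Whether samples of one number came from the same cells is not stated in the labels, and a fit with the number as a block assumes that they belong together. The study's methods state that some isolated cells were kept uncultured for RNA and the others were plated. They do not tie this split to the sample numbers. The 19 libraries were 3′ tag RNASeq libraries and held between 2073171 and 7690892 counts (median 4954915). Levels are given as counts per 1000000 (CPM) after scaling of the library sizes by the trimmed mean of M values, and the lowest count of any chaperone in any library was 44. Changes are log2 fold changes with their standard error (SE) from edgeR's quasi-likelihood test, and a gene was called when its Benjamini-Hochberg adjusted p was below 0.1 and its fold above 2. In such bulk samples, fewer cells of a type and less RNA per cell cannot be told apart.

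The 12 HSC markers (Lrat, Reln, Des and others, all tested) summed to between 28774 and 33787 CPM at 0 h and between 27079 and 32565 CPM at 3 h. Their sum then fell to between 16838 and 17769 CPM at 6 h and between 1924 and 1954 CPM at 24 h, with Gfap at 0 counts in every sample from 6 h on. The 12 hepatocyte markers (all tested) summed to between 4469 and 8832 CPM at 0 h and to between 768 and 1730 CPM at 3 h. The sum of 12 endothelial markers (all tested) ran from 984 to 1427 CPM at 0 h and from 1253 to 4457 CPM at 3 h (replicate 1 the highest), and at 3 h edgeR and DESeq2 called none of them and 1 had an unadjusted p below 0.05. The 12 Kupffer cell markers ran from 489 to 630 CPM at 0 h and from 332 to 566 CPM at 3 h, and 9 of them, Clec4f and Vsig4 included, were at 0 in all 96 h samples. The 6 cholangiocyte markers stayed at or below 19.1 CPM in sum, with Krt19 and Krt7 at 0 in every sample. The part of these other cells in the changes described here was not tested.

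Molecular chaperones hold newly made or damaged proteins in a foldable state. HSP70 proteins bind exposed hydrophobic stretches, J-domain proteins such as DNAJB1 deliver the client and trigger ATP hydrolysis, and exchange factors such as HSPH1 and BAG3 release it. HSP90 matures kinases and hormone receptors, the chaperonin of HSPD1 and HSPE1 folds proteins inside mitochondria, and small heat shock proteins such as HSPB1 hold unfolded proteins without ATP. Heat shock factor 1 (HSF1) drives the inducible members of this set by binding inverted repeats of the unit NGAAN, the heat shock element, near their start sites.

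These repeats are printed because they are the element through which the inducible members are known to be switched on together. RefSeq promoter windows of GRCm38.p6 were matched for 8 of the 10 genes, and the 250 bases before the start were searched on both strands for paired units (GAANNTTC or TTCNNGAA) and for 3 units in a row (GAANNTTC followed by NNGAA, or TTCNNGAA followed by NNTTC, each of which contains both paired forms). Paired units were present for 6 of the 8 (Hspa1a, Hspa1b, Hsph1, Hspb1, Hspd1 and Hspe1), against 14.549% of 27025 genes with a window. Runs of 3 units were present for Hspd1 and Hspe1, against 0.514% of genes. Neither form was in the windows of Dnajb1 or Bag3. Only exact units within these 250 bases were searched, so imperfect or more distant units would not have been found. Hspd1 and Hspe1 lie head to head on chromosome 1, with annotated starts 111 bases apart and 5′ ends that overlap. The same stretch lies in the upstream window of Hspe1 and of the second Hspd1 start, inside an annotated Hspd1 exon. The window of the first Hspd1 start, from which the 111 bases are counted, held neither form. Capitals mark the matched units, and each line is written 5′ to 3′ on the strand of its gene. Positions are chr1:55088053-55088082 (plus strand for Hspe1, minus strand for Hspd1), chr5:135887782-135887849 (plus strand, Hspb1), chr5:149636356-149636375 (minus strand, Hsph1, in an annotated exon) and chr17:34972157-34972406 (minus strand, Hspa1a, the whole upstream window, outside annotated exons).
Hspe1: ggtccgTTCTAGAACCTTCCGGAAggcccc
Hspd1: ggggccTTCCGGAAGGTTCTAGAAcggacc
Hspb1: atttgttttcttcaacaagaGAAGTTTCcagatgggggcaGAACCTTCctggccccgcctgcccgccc
Hsph1: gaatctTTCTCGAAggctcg
Hspa1a: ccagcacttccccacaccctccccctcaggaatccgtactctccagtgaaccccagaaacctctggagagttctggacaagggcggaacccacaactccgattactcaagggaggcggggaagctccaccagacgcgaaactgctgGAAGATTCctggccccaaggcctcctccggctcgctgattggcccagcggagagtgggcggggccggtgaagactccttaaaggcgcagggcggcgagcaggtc

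Hspa1a and Hspa1b are neighbours on chromosome 17 (ENSMUSG00000091971 at chr17:34969190-34972156 and ENSMUSG00000090877 at chr17:34956436-34959238, both on the minus strand, 9951 bases apart). Their upstream windows were the same at 247 of 250 bases (98.8%), with the substitutions C44T, T47C and T249G (the Hspa1a base first, counted from 1 at the 5′ end of the window). A match is a description of these letters and not a measured binding site.

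The 10 chaperones did not move as one group. All 10 differed between at least some of the 7 timepoints (edgeR quasi-likelihood F test, adjusted p from 1.04e-05 for Hspd1 to 0.0879 for Hsph1), a call that 27.4% of the genes tested received. Without all samples of replicate 3, which leaves 1 sample at 0 h, that count was 5 of 10. Against 0 h, 3 were called higher after 3 h, among 4.19% of all genes tested. The number was 2 after 6 h (6.98% of all genes), 3 after 12 h (8.6%), 3 after 18 h (7.64%), 3 after 24 h (5.65%) and 5 after 96 h (5.83%). Hspa8 was called lower after 6 h (4.35% of all genes) and Dnajb1 after 12 h (9.1%). DESeq2 called 6 higher at 3 h, and 6 had an unadjusted p below 0.05 in edgeR. The 4.19% does not apply to these counts, and the share of all genes at those settings is not given here. The count at 3 h was also 6 without replicate 3 at 3 h, that at 96 h was 2 without replicate 2 at 0 h and 3 without replicate 2 at 96 h, and none was lower at 12 h without replicate 2 at 0 h. With the replicate number as a block 5 were called higher at 18 h, Hspa1a and Hspa1b being the added ones. Among all genes tested, 2224 were called there in either direction with the block and 2400 without it. The median log2 fold change of the 10 was 1.60 after 3 h, 0.81 after 6 h, 0.47 after 12 h, 1.23 after 18 h, 1.13 after 24 h and 1.20 after 96 h, beside an all-gene median of 0 up to 24 h and 0.070 thereafter. These 6 comparisons share the same 2 samples at 0 h.

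**Figure D1:**
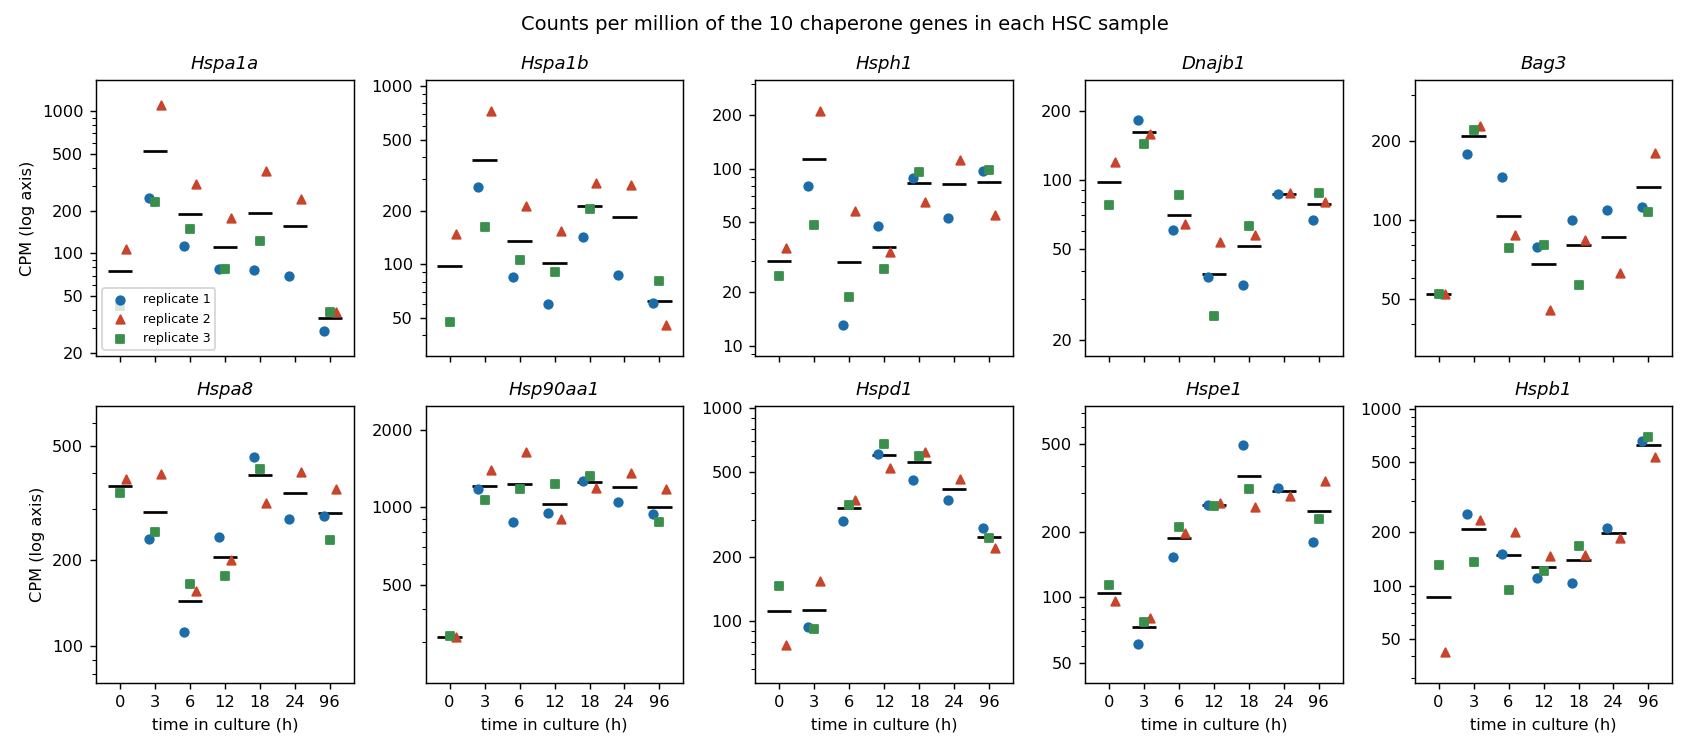
CPM (log axis) of each of the 10 chaperone genes in the 19 HSC samples, by hours in culture with the timepoints evenly spaced. Each point is 1 sample, its shape and colour give the replicate number, and the short line is the mean. Hsp90aa1 stands near 313 CPM at 0 h and at 875 CPM or more in every cultured sample, whereas Hspa1a is highest at 3 h and lowest at 96 h.

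Hspa1a encodes the stress-inducible cytosolic HSP70. It measured 42.7 CPM (replicate 3) and 108 CPM (replicate 2) at 0 h, against 245, 231 and 1109 CPM (replicates 1, 3 and 2) at 3 h. Every 3 h sample thus lay above both 0 h samples, and the 3 h sample of replicate 2 stood far above the other two. The means were 75.5 ± 46.4 CPM (n = 2, SD) before culture and 528 ± 503 CPM (n = 3) after 3 h. The rise was called (log2 fold change 2.80, SE 0.88, edgeR adjusted p = 0.0975). That call was lost without replicate 2 at 3 h (1.69, edgeR adjusted p = 0.372), without replicate 3 at 0 h (2.27, adjusted p = 0.498) and without replicate 2 at 0 h (3.66, adjusted p = 0.193). It was also lost with RLE size factors (2.71, edgeR adjusted p = 0.108) and in the fit of the compared groups alone (2.85, adjusted p = 0.147). With the replicate number as a block it was 2.92 (SE 0.41, edgeR adjusted p = 0.000717). Between samples of the same number, the change from 0 h to 3 h was 3.35 for replicate 2 and 2.42 for replicate 3 on the log2 scale.

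After 3 h, the Hspa1a level of each replicate number was lower at every later timepoint. Its levels in replicates 1, 3 and 2 were 114, 149 and 307 CPM at 6 h, 78.3, 77.7 and 178 CPM at 12 h, and 76.8, 122 and 378 CPM at 18 h. The levels at 24 h were 69.5 CPM (replicate 1) and 243 CPM (replicate 2), and those at 96 h were 28.4, 38.7 and 38.5 CPM (replicates 1, 3 and 2). All 3 samples at 96 h were thus below both samples at 0 h. The drop from 3 h to 6 h was not called without a block (−1.48, SE 0.71, edgeR adjusted p = 0.325) and was called with it (−1.25, SE 0.33, adjusted p = 0.0490). The drop from 24 h to 96 h behaved in the same way (−2.15, edgeR adjusted p = 0.247, and −1.64, adjusted p = 0.0363, with the block). Against 0 h, the block also gave calls at 6 h (1.67, edgeR adjusted p = 0.0142) and 18 h (1.51, adjusted p = 0.0196). The fit with timepoint alone gave none there (1.32, edgeR adjusted p = 0.359, and 1.34, adjusted p = 0.321). With the isolation date in the model both were called (1.60, edgeR adjusted p = 0.0176, and 1.45, adjusted p = 0.0243). Without all samples of replicate 2, which leaves 1 sample at 0 h, the 6 h change was 1.62. The level at 96 h was not separated from that at 0 h (−1.11, SE 0.78, edgeR adjusted p = 0.446).

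Hspa1b, the neighbouring gene for an almost identical HSP70 protein, measured 47.7 and 147 CPM at 0 h (replicates 3 and 2) and 270.0, 161 and 724 CPM at 3 h (replicates 1, 3 and 2). All 3 h samples were above both 0 h samples, again with replicate 2 the highest. The difference did not pass (1.98, SE 0.71, edgeR adjusted p = 0.168) and did so with the replicate number as a block (2.20, SE 0.49, adjusted p = 0.0205). It was also called with the isolation date in the model (2.13, edgeR adjusted p = 0.0197) and without replicate 3 at 3 h (2.39, adjusted p = 0.0914). DESeq2, with all samples and no block, called it too (1.89, DESeq2 adjusted p = 0.0450). Later levels ran from 84.8 to 213 CPM at 6 h, from 59.8 to 154 CPM at 12 h and from 143 to 287 CPM at 18 h, before 87.5 and 279 CPM at 24 h and 45.6 to 80.9 CPM at 96 h. From 3 h to 6 h the change was −1.52 (SE 0.60, edgeR adjusted p = 0.225), and −1.43 with the block (adjusted p = 0.0747). At 18 h against 0 h it was 1.11 (SE 0.69, edgeR adjusted p = 0.323), and 1.49 with the block (adjusted p = 0.0619). Without all samples of replicate 2, which leaves 1 sample at 0 h, the 18 h change was 1.86. From 24 h to 96 h it was −1.56 (SE 0.65, edgeR adjusted p = 0.361). No 100-base window in the last 500 bases of either transcript occurred unchanged in another annotated gene. This check finds exact matches only, so it cannot show that reads of Hspa1a and Hspa1b were fully separated.

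Replicate 2 gave the highest Hspa1a value at 6 of 7 timepoints and the highest Hspa1b value at 6 of 7, in both cases all but 96 h. With timepoint in the fit, Hspa1a was 2.74 times as high on the isolation date of replicate 2 as on that of replicates 1 and 3 (log2 difference 1.45, SE 0.19, edgeR adjusted p = 0.0372). Of the 15138 genes tested it was the only one called between dates (0.00661%), while 565 had an unadjusted p below 0.05. Hspa1b was 2.10 times as high (log2 difference 1.07, SE 0.24, unadjusted p = 0.000497) and did not pass over all genes. The other members differed between dates by −0.09 to 0.62 on the log2 scale. This comparison was chosen after the values were seen, the later date holds replicate 2 alone, and the date and the replicate number cannot be told apart. The replicate 2 samples of the 7 timepoints enter the fit as separate samples of that date. Its SE and p-values therefore do not measure the spread between dates or isolations. The Hspa1a call between dates was lost on leaving out the replicate 2 sample of any timepoint up to 24 h (edgeR adjusted p from 0.107 to 0.379) and was kept without that of 96 h (1.64, adjusted p = 0.00151). DESeq2 called 104 genes between dates, Hspa1a among them (1.44, DESeq2 adjusted p = 2.09e-08).

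**Figure D2:**
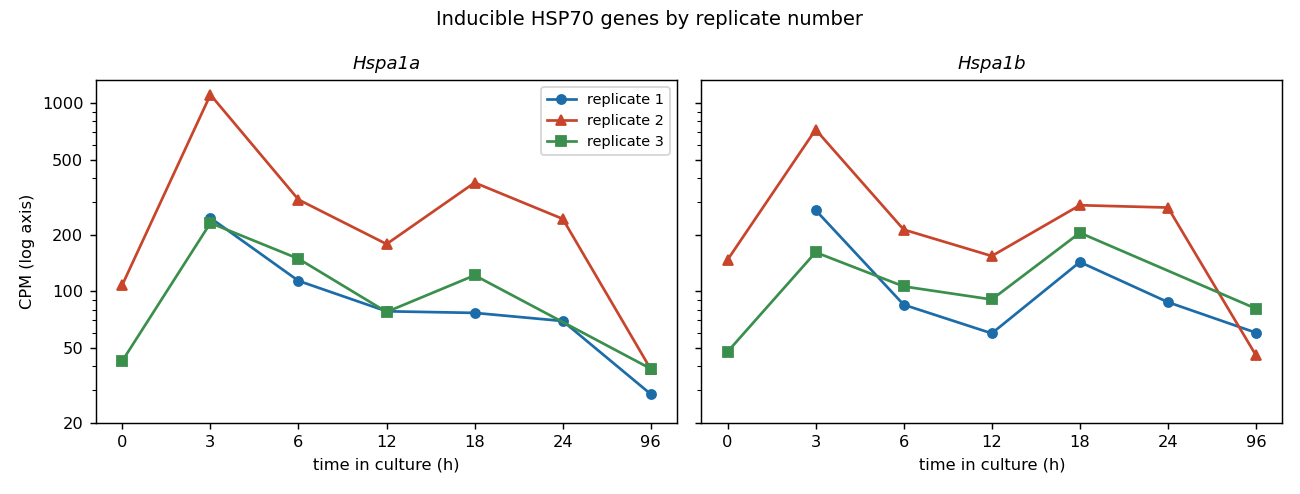
CPM (log axis) of Hspa1a and Hspa1b by hours in culture, with 1 line for each replicate number and the timepoints evenly spaced. Replicate 2 lies above the others for both genes until 24 h, with 1109 CPM of Hspa1a at 3 h, and all 3 replicates have fallen to 28.4 to 38.7 CPM of Hspa1a at 96 h.

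Bag3 (ENSMUSG00000030847, GRCm38 chr7:128523616-128546981, plus strand), the exchange factor that links HSP70 to selective autophagy, was higher after 3 h and again after 96 h. It measured 52.2 CPM in both 0 h samples and 178, 221 and 228 CPM at 3 h (replicates 1, 3 and 2), with no overlap. The change was 2.00 (SE 0.40, edgeR adjusted p = 0.00681), 2.12 between the samples of replicate 2 and 2.07 between those of replicate 3. Leaving out all samples of replicate 2 (1.96, edgeR adjusted p = 0.139) or of replicate 3 (1.95, adjusted p = 0.166), and with them a 0 h sample, ended the call. At 6 h the levels were 146, 77.8 and 87.3 CPM (0.99 against 0 h, SE 0.38, edgeR adjusted p = 0.132). The step from 3 h to 6 h was −1.01 (SE 0.33, edgeR adjusted p = 0.125) and was called without replicate 1 at 6 h (−1.34, adjusted p = 0.0658). By 12 h the levels were 79.0, 80.2 and 45.3 CPM (0.38 against 0 h, SE 0.38, edgeR adjusted p = 0.553), so that they spanned the 0 h value. A second higher level was seen at 96 h, with 112, 107 and 180.0 CPM, all above the 0 h samples (1.35, SE 0.39, edgeR adjusted p = 0.0394). The call at 96 h was lost without replicate 2 at 96 h (1.07, edgeR adjusted p = 0.143) and without either 0 h sample (replicate 3, adjusted p = 0.188, and replicate 2, adjusted p = 0.205).

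Hsph1 (ENSMUSG00000029657, GRCm38 chr5:149614287-149636376, minus strand) encodes HSP110, which exchanges the nucleotide of HSP70 and keeps aggregates soluble. Its levels were 24.6 and 35.6 CPM at 0 h (replicates 3 and 2), 80.3, 48.1 and 212 CPM at 3 h, and 13.1, 18.8 and 57.7 CPM at 6 h (replicates 1, 3 and 2). The 3 h samples were all above the 0 h samples, replicate 2 the highest, and the level of each replicate number was lower at 6 h than at 3 h. The difference at 3 h did not pass (1.91, SE 0.69, edgeR adjusted p = 0.166) and did so without replicate 3 at 3 h (2.31, adjusted p = 0.0903). DESeq2 called it with all samples (1.82, DESeq2 adjusted p = 0.0542). The fall from 3 h to 6 h was called (−1.92, SE 0.59, edgeR adjusted p = 0.0939). It was lost without replicate 1 at 3 h (−2.13, edgeR adjusted p = 0.128), replicate 2 at 3 h (−1.12, adjusted p = 0.420), replicate 1 at 6 h (−1.57, adjusted p = 0.268) or replicate 3 at 6 h (−1.68, adjusted p = 0.288), and in the fit of the compared groups alone (−1.89, adjusted p = 0.203). From 18 h onward Hsph1 lay again above both 0 h samples, at 64.6 to 95.2 CPM at 18 h, 52.4 and 111 CPM at 24 h and 55.1 to 98.9 CPM at 96 h. These later differences were not called (18 h, 1.45, SE 0.67, edgeR adjusted p = 0.185, and 96 h, 1.47, SE 0.67, adjusted p = 0.221). Both were called in the fit of the compared groups alone (1.43, edgeR adjusted p = 0.0740, and 1.47, adjusted p = 0.0708).

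Dnajb1 (ENSMUSG00000005483, GRCm38 chr8:83608193-83612653, plus strand), the main HSP40 partner of the inducible HSP70, went below its starting level. It measured 77.3 and 119 CPM at 0 h (replicates 3 and 2), 183, 144 and 159 CPM at 3 h, and 60.5, 86.2 and 64.2 CPM at 6 h (replicates 1, 3 and 2). The 3 h samples were the highest of all, above both 0 h samples and above every 6 h sample. The first step did not pass (0.72, SE 0.35, edgeR adjusted p = 0.350), and the step from 3 h to 6 h did (−1.20, SE 0.31, adjusted p = 0.0410). The latter was lost without replicate 1 at 3 h (−1.15, edgeR adjusted p = 0.124) or at 6 h (−1.11, adjusted p = 0.137). At 12 h the levels were 37.5, 25.4 and 53.6 CPM, all below the 0 h samples (−1.34, SE 0.34, edgeR adjusted p = 0.0130). That call was lost without replicate 2 at 0 h (edgeR adjusted p = 0.186) and in the fit of the compared groups alone (−1.32, adjusted p = 0.102). Levels at 18 h were 34.9, 62.6 and 57.2 CPM (−0.93, SE 0.34, edgeR adjusted p = 0.0893), which missed the fold of 2. The 18 h difference was called without replicate 3 at 0 h (−1.25, edgeR adjusted p = 0.0786) or at 18 h (−1.10, adjusted p = 0.0862). By 24 h both samples had 87.1 and 87.3 CPM, and 96 h samples held 66.8 to 88.1 CPM, within or just below the range at 0 h (−0.33 at 96 h, SE 0.34, edgeR adjusted p = 0.652, and 0.02 without replicate 2 at 0 h).

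Hspa8 (ENSMUSG00000015656, GRCm38 chr9:40800984-40810087, plus strand) encodes HSC70, the constitutive HSP70 used in folding, clathrin uncoating and chaperone-mediated autophagy. It had 341 and 381 CPM at 0 h (replicates 3 and 2), 237, 249.6 and 397 CPM at 3 h, and 112, 165 and 156 CPM at 6 h (replicates 1, 3 and 2). The 6 h samples lay below all 0 h and all 3 h samples, and 3 h overlapped 0 h. Against 0 h the fall at 6 h was −1.32 (SE 0.27, edgeR adjusted p = 0.00441), −1.29 between the samples of replicate 2 and −1.05 between the samples of replicate 3. Against 3 h it was −1.03 (SE 0.25, edgeR adjusted p = 0.0278), a call that was lost without replicate 2 at 3 h (−0.80, adjusted p = 0.127) or replicate 1 at 6 h (−0.88, adjusted p = 0.115). At 12 h Hspa8 had 176 to 240.2 CPM, below both 0 h samples, but the change was under 2-fold (−0.81, SE 0.27, edgeR adjusted p = 0.0567). It then stood at 316 to 457 CPM at 18 h, 278 and 404 CPM at 24 h and 235 to 353 CPM at 96 h. The step from 12 h to 18 h was 0.94 (SE 0.25, edgeR adjusted p = 0.203).

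The Hspa8 values need its copies beside them. Of the 100-base windows in the last 500 bases of its transcripts, 58.4% occurred unchanged in another annotated gene, 7 such genes in all. Over all samples 18245 reads were assigned to Gm15459 and 14418 to Gm8355, beside 25883 to Hspa8 itself, and how reads matching several genes were counted is not given in the sources used here. With the copies added, the mean before culture was 676 ± 11.6 CPM (n = 2, SD). It was 751 ± 202 CPM (n = 3) after 3 h and 332 ± 45.4 CPM (n = 3) after 6 h. The sum thus turned the difference at 3 h from −0.29 (SE 0.27, edgeR adjusted p = 0.678) to 0.15 (SE 0.22, adjusted p = 0.850), neither of them called. It kept the fall at 6 h (−1.02, SE 0.22, edgeR adjusted p = 0.00573). At 12 h the sum gave −0.39 (SE 0.22, edgeR adjusted p = 0.256), beside −0.81 for Hspa8 alone. At 18 h it gave 0.48 (SE 0.22, edgeR adjusted p = 0.190), beside 0.13 for Hspa8 alone. None of these values at 12 h and 18 h was called, and the lower level at 12 h is smaller with the copies.

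**Figure D3:**
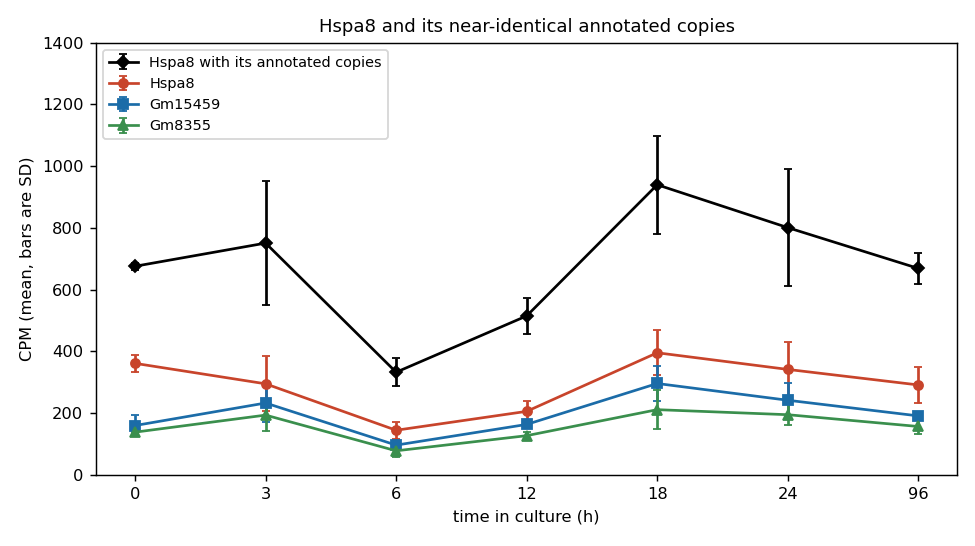
Mean CPM (bars, SD; n = 2 at 0 h and 24 h and n = 3 elsewhere) of Hspa8, of 2 annotated genes that share its 3′ sequence and of Hspa8 with all its copies added, by hours in culture with the timepoints evenly spaced. All 4 lines reach their lowest mean at 6 h, at 144 CPM for Hspa8 and 332 CPM for the sum, and their highest at 18 h.

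Hsp90aa1 (ENSMUSG00000021270, GRCm38 chr12:110690605-110702728, minus strand) encodes the inducible cytosolic HSP90 and was the only member called higher at all 6 timepoints. Its 0 h samples held 315 and 311 CPM (replicates 3 and 2). The 3 h samples held 1174, 1061 and 1395 CPM and the 6 h samples 875, 1171 and 1643 CPM (replicates 1, 3 and 2). Every cultured sample held at least 875 CPM, so the cultured and fresh samples did not overlap at any timepoint. The change was 1.95 at 3 h (SE 0.25, edgeR adjusted p = 0.000151), 1.97 after 6 h, 1.71 after 12 h, 2.00 after 18 h, 1.94 after 24 h and 1.67 after 96 h (SE 0.24 to 0.26, largest adjusted p = 0.000252). Samples at 12 h had 901 to 1225 CPM, those at 18 h 1183 to 1326 CPM, those at 24 h 1046 and 1352 CPM and those at 96 h 877 to 1171 CPM. No step between neighbouring timepoints after 3 h was called. Leaving out each sample in turn kept all 6 calls (log2 fold changes 1.54 to 2.17). Hsp90aa1 shares 17.3% of its 3′ windows with Gm12346 and Gm5844, and with these added the change at 3 h was 1.96 (SE 0.22, edgeR adjusted p = 5.17e-05).

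**Figure D4:**
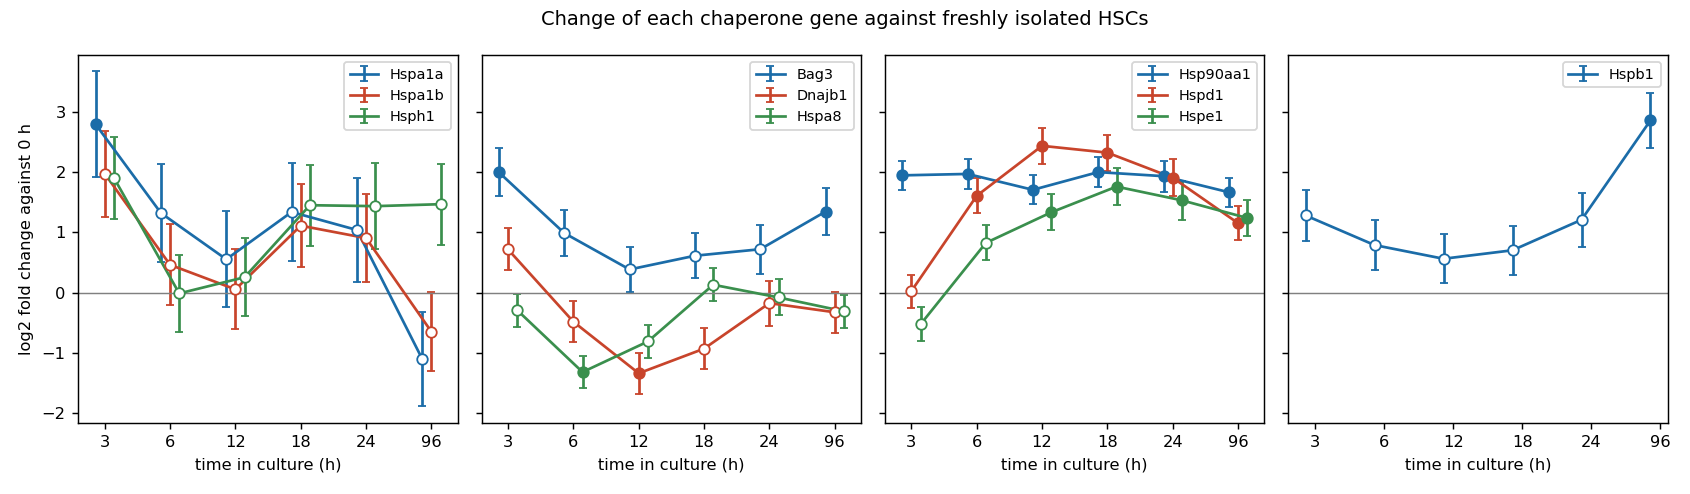
Log2 fold change against 0 h of each chaperone gene by hours in culture, with the timepoints evenly spaced and bars of 1 SE from the edgeR fit. Filled points passed the call (adjusted p below 0.1 and fold above 2). Hsp90aa1 is filled at all 6 timepoints, Hspd1 from 6 h and Hspe1 from 12 h, whereas Hspa1a is filled at 3 h and Hspb1 at 96 h.

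Hspd1 and Hspe1, which encode the mitochondrial chaperonin HSP60 and its lid HSP10 from the shared head-to-head region printed above, rose later. Hspd1 (ENSMUSG00000025980, GRCm38 chr1:55077835-55088243, minus strand) had 146 and 77.2 CPM at 0 h (replicates 3 and 2) and 93.9, 91.9 and 154 CPM at 3 h (replicates 1, 3 and 2), which overlapped. It then had 296, 351 and 373 CPM at 6 h and 608, 683 and 524 CPM at 12 h (replicates 1, 3 and 2). Every sample from 6 h on was above every 0 h and 3 h sample. Against 0 h the change was 1.61 at 6 h (SE 0.29, edgeR adjusted p = 0.00164), 2.44 at 12 h (SE 0.30, adjusted p = 3.45e-05) and 2.33 at 18 h (SE 0.30, adjusted p = 5.30e-05). The step from 3 h to 6 h was called (1.58, SE 0.25, edgeR adjusted p = 0.00215), and that from 6 h to 12 h was not (0.83, SE 0.24, adjusted p = 0.127). Levels of 459.9 to 622 CPM at 18 h, 371 and 466 CPM at 24 h and 222 to 275 CPM at 96 h followed. The change against 0 h was still 1.91 at 24 h (SE 0.31, edgeR adjusted p = 0.000711) and 1.16 at 96 h (SE 0.28, adjusted p = 0.0160), the latter not called without replicate 2 at 0 h (0.76, adjusted p = 0.269). The step from 24 h to 96 h was −0.76 (SE 0.27, edgeR adjusted p = 0.229).

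Hspe1 (ENSMUSG00000073676, GRCm38 chr1:55088132-55091307, plus strand) had 114 and 96.0 CPM at 0 h (replicates 3 and 2) and 61.0, 77.1 and 80.5 CPM at 3 h (replicates 1, 3 and 2), so that all 3 h samples were the lower ones, without a call (−0.53, SE 0.28, edgeR adjusted p = 0.407). It had 153, 210.1 and 196 CPM at 6 h and 265, 260.5 and 270.2 CPM at 12 h. All samples from 6 h on were above all earlier ones. The step from 3 h to 6 h was called (1.35, SE 0.26, edgeR adjusted p = 0.00766), and against 0 h the change at 6 h stayed under 2-fold (0.83, SE 0.29, adjusted p = 0.0991). It was called at 12 h (1.33, SE 0.30, edgeR adjusted p = 0.00581), 18 h (1.76, SE 0.30, adjusted p = 0.000847), 24 h (1.53, SE 0.32, adjusted p = 0.00561) and 96 h (1.24, SE 0.30, adjusted p = 0.0135). The 96 h samples had 179, 227 and 339.8 CPM (replicates 1, 3 and 2), and that call was lost without replicate 2 at 0 h (1.11, edgeR adjusted p = 0.157) or, by its fold, at 96 h (0.95, adjusted p = 0.0567). Across the 19 samples Hspd1 and Hspe1 had a Pearson r of 0.84 in log2 CPM. AC117239.2 shares 34.4% of the 3′ windows of Hspe1, and with it added the change at 12 h was 1.32 (SE 0.31, edgeR adjusted p = 0.00811).

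Other genes for mitochondrial folding and proteolysis, and those of the cytosolic chaperonin, were read from lists of named genes. Hspa9, the mitochondrial HSP70 that hands proteins to the chaperonin, had 107 and 111 CPM at 0 h and 1017 to 1578 CPM at 12 h, without overlap (3.65, SE 0.29, edgeR adjusted p = 5.84e-07), and was called higher at all 6 timepoints. Of 11 other genes for mitochondrial folding and proteolysis, all tested, 2 were called higher at 12 h (3 by DESeq2, median 1.21), with the protease subunit Afg3l2 at 1.65 (SE 0.42, edgeR adjusted p = 0.0142). Clpp, the matrix protease, changed by 2.11 at 24 h (SE 0.67, edgeR adjusted p = 0.0731). For comparison, 8.6% of all genes tested were called higher at 12 h. Of 14 genes for the cytosolic chaperonin TRiC and its helper prefoldin, all tested, edgeR called 6 higher after 6 h, 9 after both 12 h and 18 h, and 8 after both 24 h and 96 h. Among all genes, 6.98% were higher after 6 h, 7.64% after 18 h, 5.65% after 24 h and 5.83% after 96 h. At 3 h neither edgeR nor DESeq2 called any (2 higher and 1 lower at an unadjusted p below 0.05), and at 12 h edgeR called none lower and DESeq2 1. Their median was 1.59 at 12 h, where all 8 TRiC subunits and Pfdn6 were the ones called. Among TRiC subunits, Cct2 changed by 2.28 at 12 h (SE 0.33, edgeR adjusted p = 0.000166) and Cct4 by 2.28 at 18 h (SE 0.33, adjusted p = 0.000184).

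**Figure D5:**
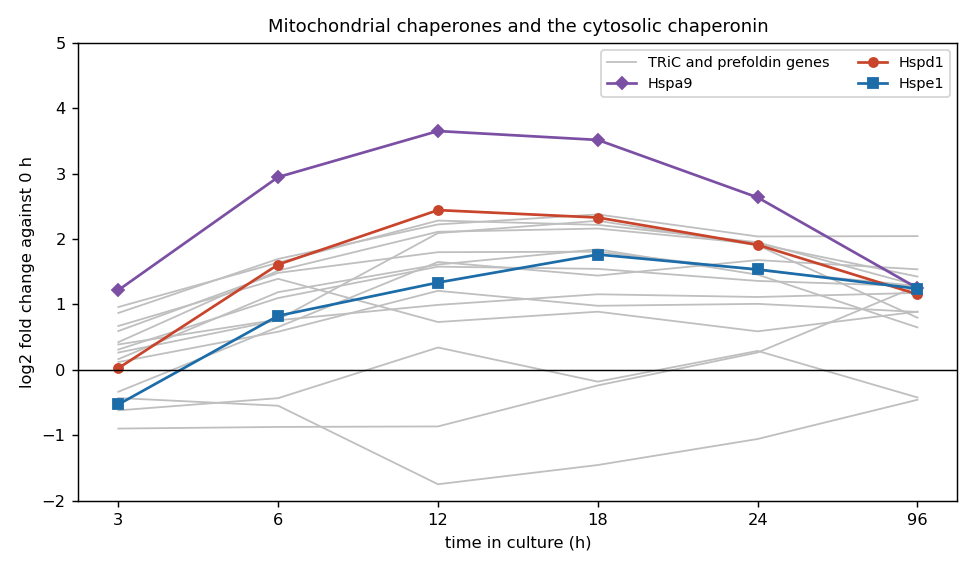
Log2 fold change against 0 h of Hspd1, Hspe1, Hspa9 and the 14 genes of TRiC and prefoldin (grey) by hours in culture, with the timepoints evenly spaced. Hspd1 is at 2.44 and Hspa9 at 3.65 at 12 h, where the grey lines have a median of 1.59.

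Hspb1 (ENSMUSG00000004951, GRCm38 chr5:135887919-135889563, plus strand), the small heat shock protein HSP27 that binds unfolded proteins and actin filaments, was highest at the end. It had 130.1 CPM (replicate 3) and 42.4 CPM (replicate 2) at 0 h and 255, 136 and 236 CPM at 3 h (replicates 1, 3 and 2). It stayed between 95.0 and 211 CPM from 6 h to 24 h and had 653, 688 and 535 CPM at 96 h. All 96 h samples lay above every earlier sample. Against 0 h this was a change of 2.87 (SE 0.45, edgeR adjusted p = 0.000517), 3.65 between the samples of replicate 2 and 2.40 between the samples of replicate 3. Against 24 h it was 1.65 (SE 0.42, edgeR adjusted p = 0.0585), a call that was lost without replicate 1 at 24 h (adjusted p = 0.256), replicate 2 at 24 h (adjusted p = 0.537), replicate 1 at 96 h (adjusted p = 0.127) or replicate 3 at 96 h (adjusted p = 0.151).

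Earlier Hspb1 differences depended on which 0 h sample was used. At 3 h the change was 1.28 (SE 0.42, edgeR adjusted p = 0.117), with 2.47 between the samples of replicate 2 and 0.06 between the samples of replicate 3. Without replicate 3 at 0 h it was called at 3 h (2.29, edgeR adjusted p = 0.0138), 12 h (1.56, adjusted p = 0.0432) and 24 h (2.23, adjusted p = 0.0113). With both 0 h samples it was not called at 12 h (0.56, SE 0.41, edgeR adjusted p = 0.400) or 24 h (1.21, SE 0.45, adjusted p = 0.134), and without replicate 2 at 0 h the 12 h value was −0.04. It was also called at 3 h without replicate 3 at 3 h (1.55, edgeR adjusted p = 0.0744). DESeq2 called the 3 h difference with all samples (1.20, DESeq2 adjusted p = 0.0461). Hsp25-ps1 shares 33.8% of the 3′ windows of Hspb1, with 983 reads beside 20833, and with it added the 3 h value was 1.29 (SE 0.40, edgeR adjusted p = 0.0932), a call, and the 96 h value 2.93 (SE 0.43, adjusted p = 0.000290).

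Of 9 other small heat shock protein genes, 5 were tested, and 2 were called higher at 96 h, against 5.83% of all genes tested. Cryab, for alpha-B-crystallin, had 164 and 157 CPM at 0 h (replicates 3 and 2) and 2444, 3421 and 2390 CPM at 96 h (replicates 1, 3 and 2), with no overlap. This was a change of 4.10 (SE 0.47, edgeR adjusted p = 2.73e-05), after a lower level at 6 h (−1.37, SE 0.39, adjusted p = 0.0358). Hspb8, the small heat shock protein that works with BAG3, had 104 and 61.9 CPM at 0 h and 369, 244 and 195 CPM at 96 h (1.70, SE 0.40, edgeR adjusted p = 0.0120). Hspb1, Cryab and Hspb8 thus had their highest means at 96 h.

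Further genes of the same network were examined in the same way. Hsf1 itself was called at no timepoint (log2 fold changes −0.51 to 0.30, edgeR adjusted p from 0.590 to 0.988), and these are mRNA levels of a factor whose activity is set on the protein. Sqstm1, the autophagy receptor p62, changed by 2.56 at 6 h (SE 0.25, edgeR adjusted p = 6.20e-06). Of 18 J-domain protein genes, 17 were tested and 1 was called at 3 h against 4.19% of all genes called higher. It was Dnajb4, a close relative of Dnajb1, with 101 and 146 CPM at 0 h and 371, 480.0 and 447 CPM at 3 h (1.81, SE 0.31, edgeR adjusted p = 0.00219). Dnajc2, a ribosome-bound member, changed by 4.47 at 18 h (SE 1.55, edgeR adjusted p = 0.0733), with 97.8 to 207 CPM there, 13.6 CPM in the 0 h sample of replicate 3 and 0 counts in that of replicate 2.

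Of 13 HSP90 relatives and co-chaperones, all tested, edgeR called none at 3 h (DESeq2 1, and 2 at an unadjusted p below 0.05), and it called 2 higher and 1 lower at 6 h (6.98% and 4.35% of all genes). Stip1, which passes clients from HSP70 to HSP90, changed by 3.03 at 6 h (SE 0.93, edgeR adjusted p = 0.0517), with 141 to 269 CPM there, 49.1 CPM in the 0 h sample of replicate 2 and 0 counts in that of replicate 3. Ppid, the HSP90-bound cyclophilin, changed by 1.90 at 12 h (SE 0.50, edgeR adjusted p = 0.0160). Of 9 other genes for BAG proteins, exchange factors and HSP70 co-chaperones, all tested, Bag5 was called higher at 18 h (1.14, against 7.64% of all genes) and lower at 96 h (−1.24, SE 0.29, edgeR adjusted p = 0.0125, against 5.03% of all genes). Of 9 other HSP70 and HSP110 genes, 8 were tested, and 3 were higher and 2 lower at 12 h (8.6% and 9.1% of all genes). The 2 lower ones averaged only 6.26 and 2.50 CPM over all samples. DESeq2 called 2 higher and 1 lower there, and the share of all genes it called is not given here. Hspa4l, an HSP110 relative, had a mean of 9.91 CPM at 0 h and 253 to 329 CPM at 96 h (4.91, SE 1.10, edgeR adjusted p = 0.00877). Serpinh1, the collagen chaperone HSP47 of the endoplasmic reticulum, was called higher at 12 h (1.29, SE 0.29, edgeR adjusted p = 0.00626) and 18 h (1.11).

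Between neighbouring timepoints, 5 of the 10 chaperones were called from 3 h to 6 h, Hspa8, Hsph1 and Dnajb1 lower and Hspd1 and Hspe1 higher, beside 4.49% of all genes. DESeq2 called Hspa1b and Bag3 lower there as well. Neither tool called any from 6 h to 12 h (1.84% of all genes), from 12 h to 18 h (0.225%) or from 18 h to 24 h (0.0396%), where 2, 1 and 1 of the 10 had an unadjusted p under 0.05. From 24 h to 96 h Hspb1 was called higher (1.37% of all genes), and DESeq2 also called Hspa1a lower.

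The genes most like each chaperone were sought by Pearson r of log2 CPM over the 19 samples, among 6724 genes averaging at least 20 CPM. The samples share their timepoints and isolation dates, so these values describe the profiles only. Hspa1a and Hspa1b were each other's closest match (r 0.92), followed by Sf3b1 for Hspa1a (0.87) and Tet3 for Hspa1b (0.81). Hspd1 was followed by Bcat1 (0.98) and Anp32b (0.96), Bag3 by Pfkfb3 (0.82) and Stat3 (0.79), and Hspb1 by Inppl1 (0.90) and Pgam1 (0.89). Dnajb1 was followed by Col5a1 and Prickle2 (both 0.87). For Hspe1, Hsp90aa1 and Hspa8 the closest match was a gene that shares their 3′ sequence (AC117239.2, 0.98, Gm12346, 0.94, and Gm15459, 0.83). The Hspa8 copies Gm8355 (0.83) and Gm15459 (0.81) were also the closest to Hsph1, with which they share no 3′ window. Among pairs of the 10, Dnajb1 ran most opposite to Hspd1 (−0.81) and Hspe1 (−0.74).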

How the data were processed

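RNA was measured by 3′ tag RNASeq (QuantSeq 3′ FWD, single-end) in 19 samples of mouse HSCs at 7 timepoints. The authors trimmed reads, aligned them with STAR to GRCm38.p6 (mm10) and deposited raw counts per Ensembl gene. Their processing notes also name StringTie. Each library pooled the sequencing of technical repeats. The counting tool, the annotation release and the treatment of reads matching several genes are not given in the sources used here. The table has 55487 rows, 55141 of which were matched to a symbol, and 0 columns were left out. With 2073171 to 7690892 counts per library, a count of 3 equals 0.39 to 1.447 CPM.

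Genes were filtered with filterByExpr of edgeR 4.0.16 (15138 kept), scaled by TMM and tested in 1 quasi-likelihood fit of all samples with timepoint as the factor, in R 4.3.3. Calls needed a Benjamini-Hochberg adjusted p below 0.1 and a fold above 2. Thresholds for the culture comparisons are not given in the sources used here. Alternatives were no scaling factors, RLE size factors, no filter, DESeq2 1.42.0, the 2 compared groups alone, replicate number or isolation date in the model, each sample left out, and, chosen after seeing the data, copies summed with their gene and all samples of each replicate number left out. Whether replicates are separate animals or cell preparations is not stated in the labels, so p-values measure the spread between these samples. The labels tie each replicate number to an isolation date, which replicates 1 and 3 share. Residual correlations were 0.014 on average between samples of the same number (51 pairs, −0.072 to 0.082) and −0.007 between others (103 pairs). Copies were sought as exact 100-base matches to the last 500 bases of transcripts.

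The members and lists were chosen with earlier results of these data known. List genes named are those with a mean of at least 50 CPM and the largest called changes, up to 2 in a list. The counts of the list that holds Hsf1 and Sqstm1 are not reported here. Hsf1 and Serpinh1 were named whatever their values, and Pfdn6 after its value was seen. Likeness used log2 CPM with a prior count of 2.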

Additional observations from a re-analysis of the deposited data

How the results depend on the processing

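Of 56 results for single genes, 23 kept their direction and their side of the threshold under every alternative run, and of 897 alternative values 786 did, 60 lost a call, 46 gained one and 5 turned sign. The 6 Hsp90aa1 results and those of Hspd1 at 6 h, 12 h, 18 h and 24 h were among those unchanged. The sign turned for Dnajb1 at 96 h (−0.61 to 0.017 on leaving out 1 sample, 0.020 without all samples of replicate 2), for Hspa8 at 3 h (0.15 with its copies) and for Hspb1 at 12 h (−0.038 to 1.56 on leaving out 1 sample, −0.14 without all samples of replicate 2). None of the turned values was called. For the counts of chaperones that follow, the share of all genes called at the same setting is not given here. The shares given above do not apply to them. Chaperones called higher at 3 h numbered 6 with DESeq2 and 2 to 6 on leaving out 1 sample. At 12 h, those called lower numbered 2 with RLE size factors or DESeq2, 0 in the fit of the compared groups, 0 to 1 on leaving out 1 sample and 0 without all samples of replicate 1 or replicate 2. At 18 h, 5 were higher with the replicate block or the isolation date in the model and 3 to 4 on leaving out 1 sample, and 1 was lower with RLE size factors, with DESeq2 or without all samples of replicate 3 (0 to 1 on leaving out 1 sample). At 96 h, 2 to 5 were higher on leaving out 1 sample, 2 without all samples of replicate 2 and 3 without those of replicate 3. The number that differed between any timepoints was 8 to 10 on leaving out 1 sample, 10 with the replicate block and 5 without all samples of replicate 3. Leaving out all samples of replicate 1 ended calls of single genes, and leaving out those of replicate 2 or of replicate 3 both ended and made calls. Each of these fits leaves 1 sample at 0 h, at 24 h or at both. DESeq2 ended 0 calls of single genes and made 8. The fit of the compared groups alone ended 4 and made 2. The block changed 7 calls of the 10 genes, all of Hspa1a or Hspa1b and all given above, and no other, and the isolation date in its place made 7 calls. The labels do not say that samples of one number are paired beyond that date, so the block values are read with that limit. Over all genes tested, residuals of samples of one number were hardly correlated (mean 0.014), an average that cannot decide the pairing for single genes. RLE size factors moved the all-gene median by −0.08 to −0.24 and library sizes alone by −0.05 to 0.27 on the log2 scale. The share of higher calls among all called genes went with RLE from 61.6% to 49.0% at 6 h, from 48.2% to 37.2% at 18 h and from 59.4% to 48.2% at 24 h, and with library sizes to 71.5% at 24 h. The cause of these changes was not tested. Where leaving out a sample left 1 sample at 0 h or 24 h, that sample was assumed to vary like the others. With 2 samples at 0 h, the spread of the starting level rests on few values, and Hspa1a, Hspa1b and Hspb1 differed more between them, as a ratio, than the other 7 chaperones did.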
